A study of Mus musculus with 10 samples.

Results

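Transcripts of 10 genes of fatty acid and triglyceride synthesis were followed over 5 tissues of aged mice on 2 diets: Fasn, Acaca, Acly, Scd1, Elovl6, Pnpla3, Me1, Thrsp, Srebf1 and Gpam. They were found by gene symbol, as every probe set annotated with exactly one of these symbols, which gave 23 of the 45101 probe sets on the array and 10 of 18194 named genes. The yogurt group was male mice of the outbred ICR stock fed the AIN-93 diet with LB81 yogurt at 1 to 2% of the diet, and the control group was males of that stock fed AIN-93 alone. Yogurt is milk soured by lactic acid bacteria. Both groups started the diets at 8 months of age, were housed singly under specific-pathogen-free conditions, and gave jejunum, ileum, distal colon, liver and spleen at 28 months. RNA was pooled in equal amounts over 10 yogurt-fed mice and over 9 control mice, so each tissue had 1 array per diet and the spread between mice was not measured.

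Cells make fatty acids from citrate that leaves the mitochondrion. ATP citrate lyase (Acly) turns the citrate into acetyl-CoA, acetyl-CoA carboxylase (Acaca) turns that into malonyl-CoA, and fatty acid synthase (Fasn) builds palmitate from both, with NADPH that malic enzyme (Me1) helps to supply. Elovl6 lengthens palmitate to stearate, Scd1 puts a double bond into stearate, and the mitochondrial acyltransferase Gpam starts the assembly of triglycerides. Liver and fat are the main sites of the pathway. There the transcription factors SREBP-1c, from Srebf1, and ChREBP switch it on after a carbohydrate meal, Thrsp is a small acidic protein that follows it closely, and Pnpla3 is a lipid droplet protein induced by feeding.

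The sequences before the start sites of 4 of these genes are shown because the results turn on them: by the main probe set of each gene, Fasn, Elovl6 and Pnpla3 had the largest ratios between the diets in liver, and Thrsp a ratio near 0. Each is the 250 bases before the start in RefSeq on GRCm38.p6, 5′ to 3′ on the strand of the gene, and the table used held such windows for 9 of the 10 genes. Capitals mark matches on either strand to the sterol response motif ATCACCC, the E-box CACGTG, the CCAAT box and the GC box GGGCGG. The Fasn window is chr11:120824548-120824797 (minus strand), the Elovl6 window chr3:129532136-129532385 (plus strand), the Pnpla3 window chr15:84167566-84167815 (plus strand) and the Thrsp window chr7:97417551-97417800 (minus strand).
Fasn: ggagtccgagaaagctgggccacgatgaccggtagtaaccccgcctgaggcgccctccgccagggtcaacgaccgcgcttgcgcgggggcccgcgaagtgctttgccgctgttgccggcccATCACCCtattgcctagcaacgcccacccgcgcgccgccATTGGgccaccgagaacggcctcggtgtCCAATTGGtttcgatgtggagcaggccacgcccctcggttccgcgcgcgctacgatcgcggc
Elovl6: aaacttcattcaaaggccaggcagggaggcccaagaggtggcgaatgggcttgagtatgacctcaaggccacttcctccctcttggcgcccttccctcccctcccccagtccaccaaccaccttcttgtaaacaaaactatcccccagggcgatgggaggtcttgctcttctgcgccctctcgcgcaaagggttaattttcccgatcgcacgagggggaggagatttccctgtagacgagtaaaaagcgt
Pnpla3: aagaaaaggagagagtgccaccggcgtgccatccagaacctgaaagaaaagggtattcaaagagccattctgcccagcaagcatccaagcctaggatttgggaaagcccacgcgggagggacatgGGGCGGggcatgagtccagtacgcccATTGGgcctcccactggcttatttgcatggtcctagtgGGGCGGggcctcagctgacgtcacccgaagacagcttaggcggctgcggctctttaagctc
Thrsp: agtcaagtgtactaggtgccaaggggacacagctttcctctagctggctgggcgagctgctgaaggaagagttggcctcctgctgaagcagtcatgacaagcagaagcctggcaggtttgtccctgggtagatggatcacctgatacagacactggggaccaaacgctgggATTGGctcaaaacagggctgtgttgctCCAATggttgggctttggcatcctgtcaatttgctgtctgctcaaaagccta

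The Fasn window held the sterol response motif once, and 3 matches to the CCAAT box, 2 of which overlap in the palindrome CCAATTGG. Pnpla3 had 1 CCAAT box and 2 GC boxes, Thrsp had 2 CCAAT boxes, and in the Elovl6 window these letters did not occur. Over the 13 windows of the 9 genes, some of which have several starts, the sterol response motif occurred in 1, the E-box in 0, the CCAAT box in 7 and the GC box in 6. Of all 32851 windows of that length, 2.28% held the sterol response motif, 6.02% the E-box, 33.8% the CCAAT box and 32.7% the GC box.

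Values are the deposited log2 expression of each probe set, and they are compared within a probe set only. The floor, the median of each array, lay between 5.42 and 5.49, and values below it were raised to it before any ratio. A probe set was taken as measured in a tissue if it exceeded the floor in the yogurt pool, the control pool or both. Of the 23 probe sets, 13 were above the floor on all 10 arrays and 4, of Acaca and Acly, on 0. Each gene is described by its main probe set, the one with the highest mean over the 10 arrays, which need not be the brightest in every tissue, with the others beside it. Arrays of one tissue had Spearman correlations of 0.991 to 0.994. Tissue labels were checked against marker lists: 11 of 11 hepatocyte, 9 of 9 enterocyte, 6 of 6 ileal, 7 of 8 distal colon and 10 of 10 splenic markers measured there were highest in the labelled tissue. Saa1, a serum amyloid gene, was the exception in distal colon, and Hba-a1, a globin gene on the splenic list, was at the floor in spleen and not counted.

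In liver the enzymes that make and lengthen palmitate were higher in the yogurt pool, while Srebf1, Gpam and the main probe set of Thrsp were nearly level between the pools. Elovl6 was 2.03-fold higher, Pnpla3 1.92-fold and Fasn 1.70-fold, followed by Acaca at 1.47-fold, Acly at 1.45-fold and Me1 at 1.35-fold. Of 18 measured probe sets, 7 were at least 1.5-fold higher and 0 at least 1.5-fold lower, where 0.402% and 0.48% of all 23129 measured probe sets were. By main probe set 3 of 10 genes were past 1.5-fold, against 0.501% of 12166 genes, and 6 genes had at least 1 probe set past it. The median log2 ratio of yogurt over control was 0.49 over the 10 genes and -0.026 over all genes. With 1 array per diet none of these differences has a replicate check, and they describe 2 pools of mice. In pooled tissue RNA, more cells of a type and more RNA per cell cannot be told apart.

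By main probe set, Elovl6 had the largest ratio of the 10 genes in liver. That set stood at a log2 value of 10.92 in the yogurt liver, against 9.90 in the control liver, and its neighbour at 9.81 against 8.87. Only 27 of the 23129 measured probe sets had a larger ratio than the first of these (log2 ratio 1.02), and 35 a larger one than the second (0.94). A further Elovl6 probe set was below the floor in both livers, and as the mean of all 3 sets the Elovl6 ratio was 0.66, under those of Pnpla3 and Fasn.

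Pnpla3 stood at 7.51 in the yogurt liver and 6.57 in the control liver, a log2 ratio of 0.94. Fasn, with 1 probe set, stood at 11.19 in the yogurt liver and 10.42 in the control liver, a ratio of 0.77 that 52 probe sets exceeded. Both genes thus lay far out in the distribution of diet ratios, whose SD over all measured liver probe sets was 0.18.

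Acaca, Acly and Me1 supply malonyl-CoA, acetyl-CoA and NADPH to Fasn. Acaca stood at 9.85 in the yogurt liver and 9.29 in the control liver (log2 ratio 0.55). The 3 measured Acly probe sets had ratios of 0.66, 0.54 and 0.37, the main set, at 0.54, standing at 11.50 in the yogurt liver and 10.96 in the control liver. The lowest of the 3, at 11.52 in the yogurt liver and 11.15 in the control liver, is an x_at set, a kind that can bind related transcripts. The Me1 probe sets gave 9.85 against 9.41 (ratio 0.44) and 11.11 against 10.33 (ratio 0.78), yogurt liver first in each pair, and the second of these, the brighter in liver, had a ratio close to that of Fasn. Acaca and the main Acly set lay just under 1.5-fold, which is 0.58 on the log2 scale, and the second Acly set at 0.66 just over it.

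The 2 probe sets of Scd1 differed widely in liver. The main set stood at 14.02 in the yogurt liver and 13.91 in the control liver (log2 ratio 0.11), and the other at 10.62 in the yogurt liver and 9.75 in the control liver (0.87, 1.83-fold). The first was near the top of the range of the array, with only 9 probe sets brighter on the yogurt liver array and 12 on the control liver array. Of the 136 probe sets with a liver mean of at least 13, 0 were at least 1.5-fold different in either direction. The share was 0.735% for means of 10 to 12, 0.605% for 8 to 10, and 1.06% of the 13860 with a mean below 8. At such low shares, 136 probe sets are too few to tell these ranges apart. The part of brightness in the gap between the 2 Scd1 ratios was not tested.

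Thrsp, Gpam and Srebf1 differed little in liver. Thrsp stood at 12.54 in the yogurt liver and 12.46 in the control liver (log2 ratio 0.07), and its other probe sets had ratios of 0.24 and -0.18. Only 272 and 307 probe sets were brighter than Thrsp in the yogurt and the control liver. Of the 402 probe sets with a liver mean of 12 to 13, 1 was 1.5-fold different (0.249%), against 0.735% of those with a mean of 10 to 12. With 1 such probe set these ranges cannot be told apart, and the part of brightness in the Thrsp ratio was not tested. Gpam stood at 11.80 in the yogurt liver and 11.70 in the control liver (0.10), with -0.04 for its second probe set. Srebf1 stood at 10.64 in the yogurt liver and 10.66 in the control liver (-0.02). Its one probe set is annotated to the gene and names no transcript.

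**Figure D1:**
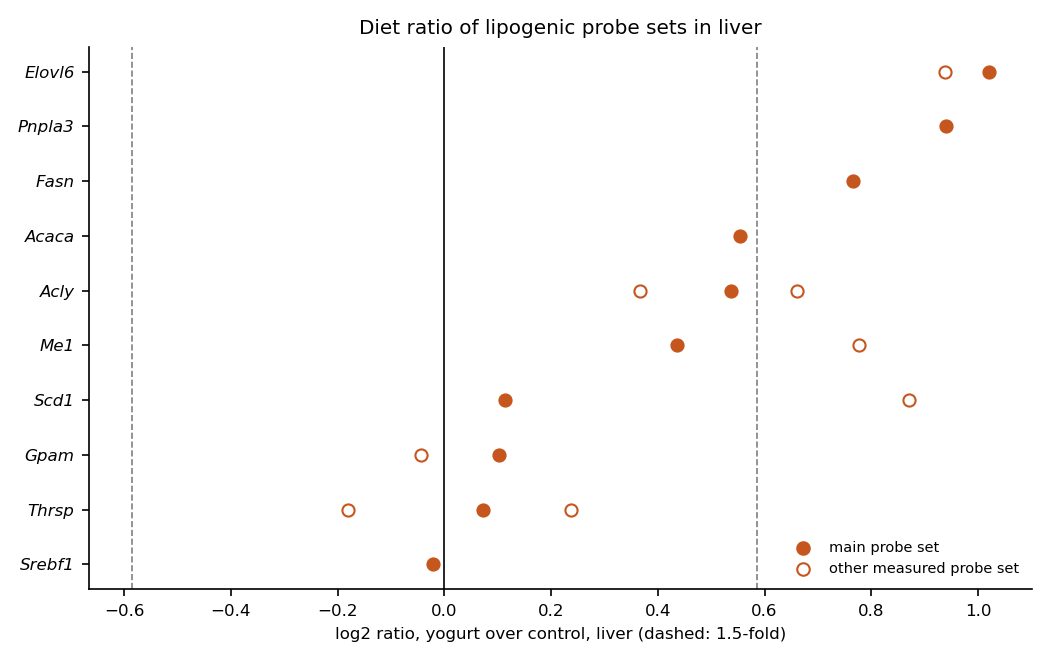
Log2 ratio of yogurt over control in liver (x axis) for every measured probe set of the 10 genes (rows). Filled circles are the main probe set of a gene, open circles its other measured sets, and dashed lines mark 1.5-fold; Elovl6, Pnpla3 and Fasn lie beyond the line, and the open circle of Scd1 lies at 0.87 while its filled one is at 0.11.

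Hepatocyte markers were nearly level in liver, and some markers of other cells were not. All 11 matched hepatocyte markers were measured, with ratios from -0.11 to 0.08 (median -0.02). Their summed antilogged level was 143000 in the yogurt liver and 143000 in the control liver. Most of these markers had liver values above 13, near the top of the range of the array. The SD of the diet ratio was 0.09 for the 136 probe sets with a liver mean of at least 13. It was 0.14 for means of 10 to 12. Ratios in the brightest range were thus small in general, so these markers cannot decide whether the hepatocyte share was equal in both livers. The 10 macrophage markers had a median of 0.004 and ran from -0.21 to 0.40, for the scavenger receptor Cd163. Of 5 enterocyte markers measured in liver (median 0.08), the glucose transporter Slc5a1 was 1.71-fold higher in the yogurt liver, and the rest lay between -0.05 and 0.11. Both ileal markers measured were above 0, at 0.48 and 0.39. The 8 splenic markers measured ran from -0.20 to 0.51. Among 10 matched adipocyte markers, the fat hormones Adipoq and Lep, with Cidea and Aqp7, were at the floor in both livers, and the 6 measured had a median of 0.03 (-0.25 to 0.34). The log2 ratio of 3′ over 5′ actin signal, a sign of RNA quality, was 1.82 in the yogurt liver and 2.01 in the control liver, against 0.66 to 1.01 on the 6 gut arrays. In the yogurt and control spleens it was 1.09 and 1.01. The same ratio for Gapdh was 0.86 and 0.98 in the yogurt and control livers, 1.29 and 1.01 in the spleens, and 0.05 to 0.23 in the gut. The part of these markers and of RNA quality in the liver ratios was not tested.

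Other genes of the pathway stood nearer to 0 in liver. Among further genes of fatty acid synthesis, which include the remaining elongases, desaturases and Acacb, 22 of 24 were measured. In that group 0 were 1.5-fold higher and 0 lower, and the median was -0.001. The extremes, picked out after their values were seen, were Acacb, the mitochondrial-outer-membrane carboxylase, at 0.41, and the elongase Elovl3 at -0.55. Triglyceride assembly genes had a median of -0.02 (18 measured, -0.33 to 0.27) and NADPH supply genes 0.02 (7 measured, -0.16 to 0.26). Genes of lipid droplets and lipolysis were below 0 in 12 of 14 cases, where 42.2% of all liver genes were above 0. Their median was -0.18. The lowest value was -0.49, for the droplet protein Hilpda, named after its value was seen. In these 3 lists too, 0 genes were past 1.5-fold in either direction, where 0.501% of all genes were higher and 0.337% lower.

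Of 22 regulators of lipogenesis, 8 were above 0, where 42.2% of all liver genes were, and 0 past 1.5-fold. Their median was -0.03, and they ranged from -0.51, for the coactivator Ppargc1b, to 0.25, for the nuclear receptor Nr0b2. ChREBP itself (Mlxipl) was at -0.08, the liver X receptor Nr1h3 at -0.02 and the SREBP retention protein Insig1 at -0.02, and all 5 were named after their values were seen. Genes of glycolysis and ChREBP targets were above 0 in 6 of 9 cases with a median of 0.25, none of the 9 past 1.5-fold. The extremes were the gluconeogenic gene G6pc at 0.33 and Txnip at -0.16, and 3 of the 9 were below 0. Pklr, liver pyruvate kinase, was at 0.31, and Khk, which phosphorylates fructose, at 0.25. These genes too were named after their values were seen.

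**Figure D2:**
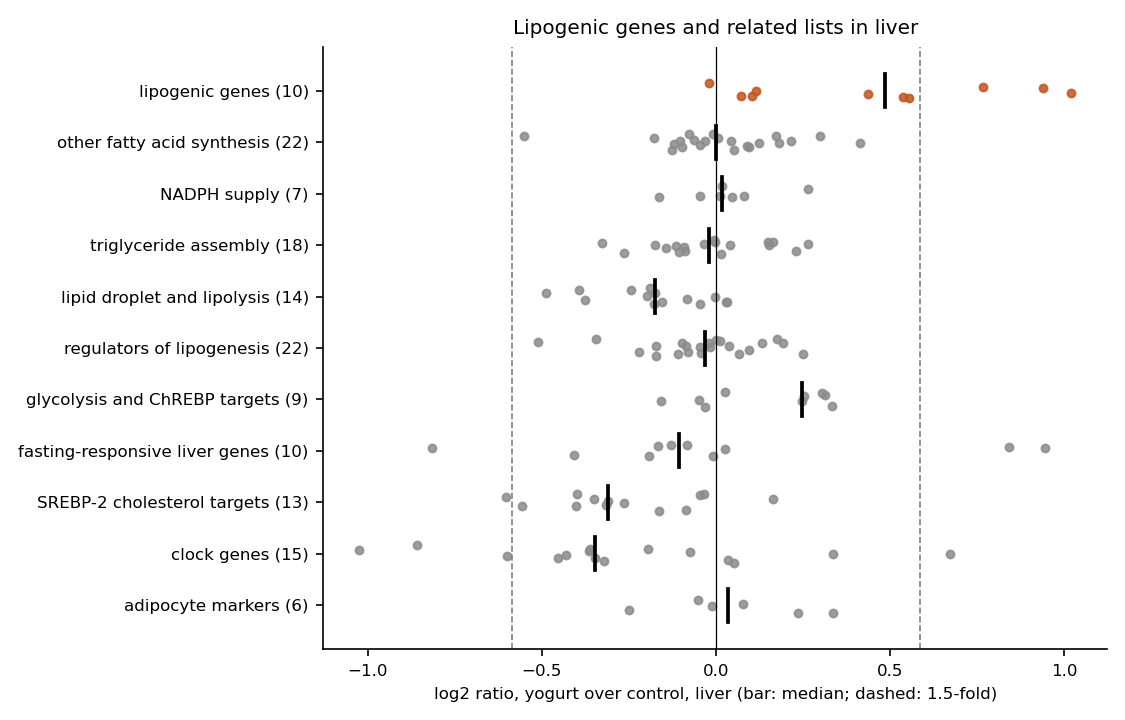
Log2 ratio of yogurt over control in liver (x axis) for each measured gene of the 10 lipogenic genes (orange) and of related lists (grey), with the number measured in brackets. Bars are medians and dashed lines 1.5-fold; the lipogenic median is 0.49, and those of further fatty acid synthesis and of cholesterol genes are -0.001 and -0.31.

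Genes that answer to fasting were split on the same arrays. Of 10 measured, Cyp4a14, a fatty acid hydroxylase, was 1.93-fold higher in the yogurt liver and the hormone gene Fgf21 1.79-fold higher. The acyl-CoA thioesterase Acot1 was lower at -0.82, and the list median was -0.11. Cholesterol genes under SREBP-2 were below 0 in 12 of 13 cases with a median of -0.31, of which Msmo1 (-0.60) was past 1.5-fold. Clock genes had a median of -0.35 over 15 measured, with Ciart at -1.03, Dbp at -0.86, Per3 at -0.60 and the activator Arntl at 0.67. The part of clock phase in the lipogenic ratios was not tested.

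In jejunum and spleen none of the measured lipogenic probe sets was 1.5-fold different between the diets. In jejunum 15 were measured and 0 were past 1.5-fold, where 0.705% of all probe sets were higher and 0.281% lower. Ratios of the main sets ran from -0.26 for Me1 to 0.38 for Scd1, with a median of 0.01. In spleen 16 were measured and 0 were past 1.5-fold, where 0.613% of all were higher and 1.33% lower. The spleen ratios ran from -0.24 for Acaca to 0.25 for Me1, with a median of 0.12 over the genes and -0.048 over all genes. The main sets of Fasn, Acaca and Acly, all higher in the yogurt liver, were between -0.04 and 0.03 in each of the 3 gut segments, and the other Acly sets between -0.14 and 0.15. Whether the diet ratio in liver differs from that in another tissue was not tested, since each has 1 array per diet.

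**Figure D3:**
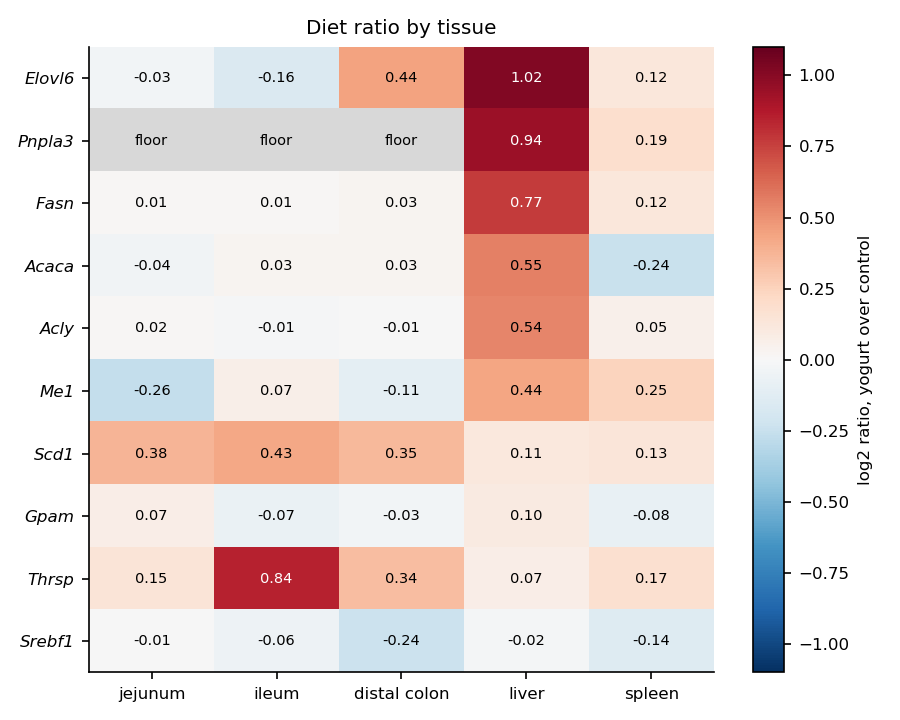
Log2 ratio of yogurt over control for the main probe set of each gene (rows, ordered by the liver ratio) in each tissue (columns). Red is higher in the yogurt pool, blue lower, and grey cells marked floor had both arrays at the floor; the strongest red cells are Elovl6, Pnpla3 and Fasn in liver and Thrsp in ileum.

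In ileum Thrsp was the 1 lipogenic gene past 1.5-fold. It stood at 6.81 in the yogurt ileum and 5.96 in the control ileum, 1.79-fold higher, and its second probe set at 6.60 against 6.09 (log2 ratio 0.52). Of 15 measured probe sets 1 was 1.5-fold higher, where 0.238% of all were, and 0 were lower, where 0.372% were. Raising the floor to the 65th percentile of each array made the Thrsp ratio in ileum 0.17. Scd1 stood at 10.56 in the yogurt ileum and 10.13 in the control ileum, a ratio of 0.43. The other members lay between -0.16 and 0.07 in ileum.

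In distal colon 0 of 15 measured probe sets were past 1.5-fold, where 0.883% of all were higher and 0.19% lower. By main probe set the largest ratios were 0.44 for Elovl6, which stood at 8.54 in the yogurt colon and 8.09 in the control colon, 0.35 for Scd1 and 0.34 for Thrsp. The second sets of Elovl6 and Thrsp gave 0.18 and 0.04. Srebf1 had the lowest at -0.24, with 9.92 in the yogurt colon and 10.16 in the control colon. Scd1 was thus between 0.35 and 0.43 in the 3 gut segments by its main probe set. Its dimmer set, close to the floor in ileum and distal colon, gave -0.01 in ileum and 0.04 in distal colon. In jejunum it was below the floor and not measured.

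Adipocyte markers were higher in the same yogurt arrays of ileum and distal colon. Over all genes, 37.9% were above 0 in ileum, 45.3% in distal colon and 46.5% in jejunum. In ileum 7 of 8 measured markers were above 0 and 4 past 1.5-fold, led by Car3 at 3.40-fold, the fat hormone Adipoq at 2.78-fold, Retn at 1.77-fold and the fatty acid carrier Fabp4 at 1.60-fold. Their summed antilogged level was 4760 in the yogurt ileum and 2690 in the control ileum. In distal colon 6 of 7 were above 0 and 5 past 1.5-fold, with sums of 5100 in the yogurt colon and 2440 in the control colon. On the same colon arrays the enterocyte markers Fabp2 and Alpi, an alkaline phosphatase, were 3.11-fold and at least 3.97-fold higher in the yogurt pool, 2 of 5 measured. The ileal markers Slc51b and Slc51a, the subunits of a bile salt exporter, were 1.66-fold and at least 3.16-fold higher, 2 of 4 measured. All 10 smooth muscle markers were below 0 there, with a median of -0.26. Elovl6 was itself higher in jejunum than in distal colon, and the part of these markers in its colon ratio was not tested. In jejunum the adipocyte sums were 2530 for the yogurt mice and 2330 for the controls, Adipoq was at the floor, 4 of 6 measured markers were above 0, and Car3 was at least 1.74-fold higher. Lep and Cidea were at the floor in all 3 segments. Fat cells are rich in Scd1, Thrsp and Fasn transcripts, and the part of these markers in the Thrsp and Scd1 ratios was not tested. The jejunal arrays also differed in exocrine pancreas markers, all 11 of which were past 1.5-fold higher in the yogurt pool (median 1.48), and the part of that tissue was not tested either.

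Few related genes were past 1.5-fold outside liver. In distal colon Gpat3, an acyltransferase of triglyceride assembly, was 1.52-fold higher. In ileum the gluconeogenic genes G6pc and Pck1 were lower, at -0.91 and -0.69. Triglyceride assembly genes were below 0 in 15 of 18 cases in jejunum (median -0.19) and 16 of 17 in ileum (median -0.12), with 0 of them past 1.5-fold. Enterocyte markers were below 0 on the same arrays, 9 of 9 in jejunum (median -0.17) and 7 of 8 in ileum (median -0.05), and their part in these counts was not tested. The medians over all genes were -0.011 in jejunum and -0.039 in ileum, and 46.5% and 37.9% of all genes were above 0. Among clock genes, Ciart stood at -0.79 in ileum and -1.01 in distal colon and Dbp at -0.76 in distal colon. Of all measured genes, 0.635% were 1.5-fold higher and 0.244% lower in jejunum, 0.211% and 0.293% in ileum, and 0.946% and 0.0889% in distal colon.

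**Figure D4:**
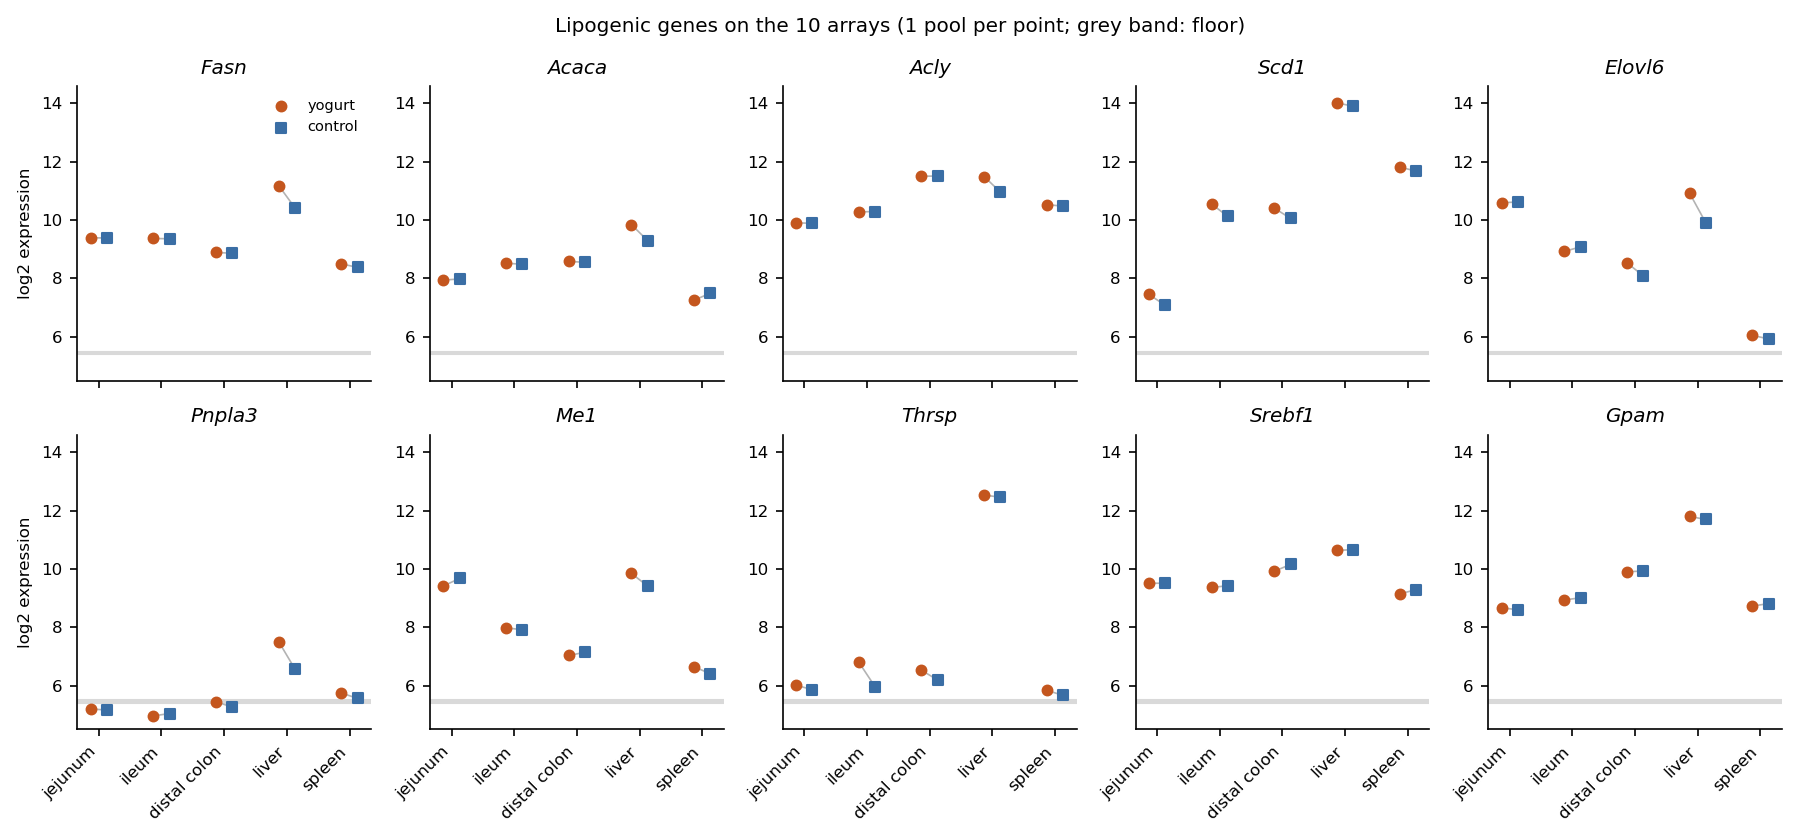
Deposited log2 expression (y axis) of the main probe set of each gene in the 5 tissues, as 1 circle for the yogurt pool and 1 square for the control pool, joined by a line. The grey band is the floor; the gap between the pools is widest in liver for Elovl6, Pnpla3 and Fasn, and Pnpla3 lies at or under the floor in the 3 gut segments.

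Between tissues, the lipogenic genes were mostly highest in liver. This was tested with limma on all 10 arrays with terms for tissue and diet, on the 26905 probe sets above the floor on at least 2 arrays, and a call needed a Benjamini-Hochberg adjusted p under 0.05 and a difference of at least 2-fold. The 2 arrays of a tissue are pools of different mice on different diets. The diet term takes out the average difference between the pools over the tissues. The spread behind these p-values is how far that difference varies from tissue to tissue. It is not the spread between mice. The 3′ over 5′ signs of RNA quality differed between liver, spleen and gut, and their part in the tissue differences was not tested. Of 19 member probe sets tested, 14 were higher in liver than in the mean of the other 4 tissues and 0 lower, where 9.73% of all tested were higher and 12.1% lower. Among the 13 above the floor on all 10 arrays, 10 were higher. The other 6 tested had been above the floor on 2 to 8 arrays, some of them in liver only or in liver and spleen only, so a difference there follows in part from the filter. By main probe set, 8 of the 9 genes above the floor on all 10 arrays were called higher in liver, the exception being Acly.

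By main probe set, Thrsp had the largest difference between liver and the other tissues. It stood at 12.54 and 12.46 in the yogurt and control livers, against 5.67 to 6.81 on the other 8 arrays, a log2 difference of 6.39 ± 0.14 (SE, limma, adjusted p = 9.17e-09). Scd1 stood at 14.02 and 13.91 in liver, against 7.08 to 11.82 elsewhere, a difference of 4.06 ± 0.07 (limma, adjusted p = 2.26e-09). For both genes the liver arrays lay far above all the others.

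Gpam followed, with 11.80 and 11.70 in the yogurt and control livers, against 8.60 to 9.93 elsewhere, and a difference of 2.67 ± 0.05. The liver differences of Elovl6, Me1, Fasn, Pnpla3, Acaca and Srebf1 were 1.93 ± 0.20, 1.85 ± 0.12, 1.78 ± 0.14, 1.52 ± 0.17, 1.47 ± 0.13 and 1.11 ± 0.05, all with limma adjusted p of 9.87e-05 or lower. Pnpla3 was at the floor in all 6 gut arrays, so its value depends on where the floor is set, and raising the floor to the 65th percentile made it 0.42 (limma, adjusted p = 0.0576). Acly was higher in liver by 0.68 ± 0.10 (limma, adjusted p = 0.000491), under 2-fold, and without the yogurt liver array by 0.41.

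**Figure D5:**
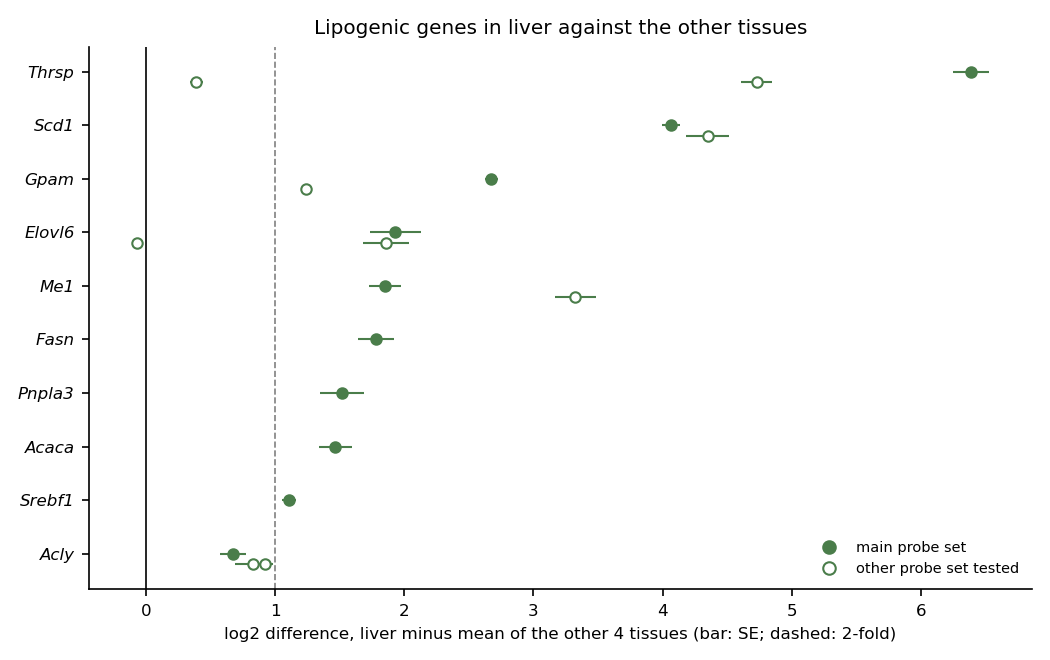
Log2 difference of liver minus the mean of the other 4 tissues (x axis) for the tested probe sets of each gene (rows), with SE bars from limma. Filled circles are the main probe set and open circles the others, and the dashed line marks 2-fold; Thrsp at 6.39 and Scd1 at 4.06 stand farthest right, Acly at 0.68 lies left of the line.

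Liver was not the highest tissue for every gene, and for Elovl6 its place in the order differed between the yogurt and control pools. Elovl6 stood at 10.92 and 9.90 in the yogurt and control livers, against 10.60 and 10.62 in the yogurt and control jejunum, so the yogurt liver lay above jejunum and the control liver below it. The test did not tell the tissue means apart (liver minus jejunum -0.20 ± 0.25, limma, adjusted p = 0.522). Acly stood at 11.50 and 10.96 in the yogurt and control livers, against 11.51 in both colon arrays (liver minus distal colon -0.28 ± 0.13, limma, adjusted p = 0.0869). For Me1 the main probe set put liver 0.08 ± 0.16 above jejunum (limma, adjusted p = 0.67). The second Me1 set gave 1.52 ± 0.20 (limma, adjusted p = 0.000299), so the probe sets disagree on this pair.

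Within the gut, Elovl6 and Me1 were highest in jejunum, and the main Scd1 set was lowest there. Elovl6 was lower in ileum than in jejunum by 1.60 ± 0.25 and in distal colon by 2.30 ± 0.25, and Me1 by 1.60 ± 0.16 and 2.46 ± 0.16. Scd1 was higher in ileum than in jejunum by 3.07 ± 0.09, or 8.41-fold, and in distal colon by 2.97 ± 0.09. All 6 of these differences were called by limma, with adjusted p of 0.0027 or lower. The dimmer Scd1 set was below the floor in jejunum, at 4.03 and 3.79 in the yogurt and control pools. In ileum it was near the floor, at 5.32 and 5.48, as it was in distal colon. After the floor it gave 0.01 ± 0.21 for ileum minus jejunum and 0.10 ± 0.21 for distal colon minus jejunum. Raising the jejunum values to the floor leaves little room for a difference, so this set cannot decide these pairs. Among all tested probe sets, 2.16% were higher in ileum than in jejunum and 1.85% lower, and 5.88% were higher in distal colon than in jejunum and 4% lower. The main sets of Acly and Gpam were also higher in distal colon than in jejunum, by 1.61 ± 0.13 and 1.28 ± 0.06. The Fasn values of jejunum, 9.40 and 9.39, and of ileum, 9.37 and 9.36, were nearly the same. Adipocyte markers summed to 2530 and 2330 in the yogurt and control jejunum, 4760 and 2690 in ileum, 5100 and 2440 in distal colon. Exocrine pancreas markers summed to 74000 and 27200 in jejunum, 835 and 892 in ileum, 5900 and 6960 in distal colon. The part of these markers in the differences between gut segments was not tested.

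In spleen Scd1 was higher than in the gut, and Elovl6 and Me1 were lower. The main Scd1 set stood at 11.82 and 11.69 in the yogurt and control spleens, against 7.08 to 10.56 in the gut, higher by 2.47 ± 0.07 than the mean of the 3 gut segments (limma, adjusted p = 3.82e-08). Its dimmer probe set was higher by 1.29 ± 0.17. That set was below the floor in jejunum and near it in ileum and distal colon, so the floor in part sets this value. Elovl6 was lower by 3.32 ± 0.20 and Me1 by 1.67 ± 0.13, both with limma adjusted p of 8.61e-06 or lower. Of 19 member probe sets 2 were higher and 4 lower, where 10.5% and 13.9% of all tested were. The 2 higher sets were both of Scd1, and that count is near the share over all.

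Other neighbours in the order of tissues often did not differ. Fasn ran liver, jejunum, ileum, distal colon, spleen, and of these only liver and jejunum differed as neighbours at an adjusted p under 0.05 (1.41 ± 0.18, limma, adjusted p = 0.000208). Acaca ran liver, distal colon, ileum, jejunum, spleen, with only distal colon and ileum not told apart. Srebf1 ran liver, distal colon, jejunum, ileum, spleen, and jejunum and ileum were not told apart. Gpam ran liver, distal colon, ileum, spleen, jejunum, with the last 2 not told apart. Scd1 ran liver, spleen, ileum, distal colon, jejunum, with ileum and distal colon not told apart. For Thrsp and Pnpla3 the 4 tissues below liver could not be ordered by neighbouring differences.

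The genes most like the group over the 10 arrays were sought among 13594 genes by Pearson correlation with the mean of the 10 scaled profiles. The closest were Depp1, Fam171b, Rbp4, Plekhb1 and Pex6, with r of 0.982 to 0.986. Rbp4 encodes the retinol carrier of plasma and Pex6 a peroxisome assembly ATPase. The 10 arrays share 5 tissues, which set most of this likeness. In liver the diet ratios of these 5 genes were between -0.09 and 0.25, below those of Fasn, Elovl6 and Pnpla3.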

How the data were processed

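RNA pools of 10 yogurt-fed or 9 control mice (100 ng each) were measured on 10 whole-genome mouse expression arrays, 1 per tissue and diet. The values are log2 expression per probe set as deposited by the authors, from 2.71 to 14.8. Per the submitters' processing notes the tools were MAS5 and affy, with no version or role, and how arrays were scaled to each other is unknown here. Probe sets were named from the platform annotation and, through gene number, RefSeq symbols of GRCm38.p6: 34958 had 1 symbol, 932 several and 9211 none. The 64 array controls were left out.

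A floor at the 50th percentile of each array was applied first. Diet ratios, yogurt minus control, have no test. Tissue contrasts used limma 3.58.1 in R 4.3.3 (lmFit, eBayes with trend; tissue and diet; 4 residual degrees of freedom), tested on simulated data. Values at the floor show little spread, so SEs and p-values there can be too small. Of 250 genes in 19 lists, 230 were matched. All 10 members are named, list genes when past 1.5-fold (up to 4 per list in liver, 2 elsewhere; 4 markers), and the 5 most alike; others are marked. Members and lists were chosen with earlier results of these data known. Alternatives covered the floor, a pseudocount of 32, centring, quantile normalization, probe set choice, filter, trend, diet term and leaving out arrays. No scan batch is given. The number of arrays limits the precision.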

Additional observations from a re-analysis of the deposited data

How the results depend on the processing

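Over 90 results there were 784 comparisons with an alternative, of which 773 were classed as the same. For a tested difference this meant the same direction and side of the threshold, and for a count a change of at most 1.5-fold. For a diet ratio or median it meant a move of less than 1 SD of the diet ratios over all genes of that tissue. That SD is of single genes, so the rule is lenient for medians. The number of lipogenic probe sets at least 1.5-fold higher in the yogurt liver was 7 under each alternative run for it, and the median ratio of the measured lipogenic probe sets in liver ranged from 0.44 to 0.54. Raising the floor to the 65th percentile made the ileum count 0, against 1, the count of probe sets higher in spleen than in gut 1, against 2, and the liver difference of Pnpla3 0.42. Leaving out 1 array at a time gave 13 to 15 probe sets higher in liver than in the other tissues and 0 lower, and 2 higher and 4 to 5 lower in spleen than in the gut. The Thrsp ratio in ileum was 0.17 with the higher floor, 0.61 with the pseudocount and 0.45 as the mean of its probe sets. As means of all probe sets, dim ones included, the liver ratios of Elovl6, Acaca, Acly and Scd1 were 0.66, 0.29, 0.27 and 0.49, and Pnpla3 was 0.75 with the pseudocount. The means of Elovl6, Acaca and Acly include probe sets below the floor in both livers. Raised to the floors of 5.44 in the yogurt liver and 5.42 in the control liver, these sets enter the mean with a ratio near 0. The cause of the other shifts was not tested. No paired analysis was possible for the diet ratio within a tissue because each tissue had 1 array per diet. The tissue contrasts carry diet as a term, and without it they gave the same counts, 14 higher and 0 lower in liver and 2 higher and 4 lower in spleen. An average diet effect over the tissues was not tested, since the tissues come from the same 2 pools of mice. Differences near the floor, as for Pnpla3 outside liver, are limited by signal over background.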
